A study of Mus musculus with 2 samples.

Results

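The cytosolic ribosomal protein genes encode the proteins of the ribosome that translates nuclear messages. They were chosen by name: every protein-coding gene called Rpl or Rps plus a number, with an optional a, l or x, together with Rplp0, Rplp1, Rplp2, Rpsa and Fau. Pseudogenes named with -ps and the Rps6k kinases were left out. The names picked 81 of the 69691 rows of the gene tables, 49 for the large subunit and 32 for the small one. Of these, 78 had a mean of at least 5 TPM (transcripts per 1e6 transcripts), 46 for the large and 32 for the small subunit. The other 3 were Rpl3l, Rpl10l and Rpl39l. The name pattern did not take Rps3a1, which also encodes a protein of the cytosolic ribosome, nor Rack1, whose product sits on the small subunit. Both are given beside the other messages with a 5' pyrimidine tract.

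A mature ribosome joins a small subunit, which reads the message, to a large subunit, which forms peptide bonds, and it holds about equal numbers of nearly every protein. Surplus ribosomal proteins are unstable, so their synthesis is matched to need. In mammals this is done largely at translation, through a run of pyrimidines at the very 5' end of the message, the terminal oligopyrimidine (TOP) motif, which the mTOR pathway acts on through Larp1. In the embryonic forebrain, dividing progenitors and growing neurons both make ribosomes at a high rate. Mutations of single ribosomal protein genes in the mouse give defects in particular tissues, and the genes have left many processed pseudogenes in mammalian genomes.

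The study measured total RNA by sequencing in the forebrain of mouse embryos (strain B6NCrl) at embryonic day 14.5. It holds 1 group of 2 libraries, replicate 2 and replicate 1, with no treatment or mutant. Each library came from 10 ng of RNA longer than 200 nucleotides, with spike-in RNA added. The labels describe each sample as 1 forebrain, collected on separate days, while their sex field speaks of both sexes pooled and both samples carry the same donor entry. The libraries are called 2 embryos below from that description, and the sex and donor entries leave this unsettled. With 1 group of 2 libraries no test across samples was possible. Spread is given as the SD over the 2 libraries, and the error within a library as the interval that the authors deposited for each TPM, whose level is not given in the sources used here.

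The libraries held 29250404 expected counts for replicate 2 and 35310017 for replicate 1. Forebrain markers were present in both, with 8 genes summing to 2474 TPM in replicate 2 and 2229 TPM in replicate 1, and the hindbrain genes Hoxa3 and Hoxb3 stood at 0 in both. Markers of other cells in the dissected tissue were also read. The 6 red blood cell genes summed to 13964 TPM in replicate 2 and 11279 TPM in replicate 1. The 3 genes of the meninges summed to 246 TPM in replicate 2 and 176 TPM in replicate 1. The 4 microglial genes came to 103 TPM in replicate 2 and 95.1 TPM in replicate 1, and the 3 endothelial genes to 174 TPM in replicate 2 and 175 TPM in replicate 1. All 6 red blood cell genes, all 3 meningeal genes and all 4 microglial genes were higher in replicate 2. So were 6 of the 8 forebrain genes and 1 of the 3 endothelial genes. Of all nuclear protein-coding genes of at least 5 TPM, 73.8% were higher in replicate 2. In whole tissue, fewer cells of a type and less RNA per cell cannot be told apart.

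The ribosomal protein genes were among the most abundant messages of the forebrain. They summed to 43565 TPM in replicate 2 and 54923 TPM in replicate 1. That was 5.23% of the TPM of all nuclear protein-coding genes in replicate 2 and 6.75% in replicate 1. Of the TPM of all rows they held 4.36% in replicate 2 and 5.49% in replicate 1. Because the messages are short, they took only 1.59% of the expected counts of all rows in replicate 2 and 2.12% in replicate 1. The 81 genes had a median level of 533 TPM in replicate 2 and 628 TPM in replicate 1, where all nuclear protein-coding genes had a median of 4.58 TPM in replicate 2 and 3.86 TPM in replicate 1. None of the 81 was among the 10 most abundant nuclear protein-coding genes, but 17 were in the top 100 and 68 in the top 500.

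The most abundant ribosomal protein message was Rpl41, at 1943 TPM in replicate 2 and 2718 TPM in replicate 1 (mean 2330 ± 548, SD, n = 2), which ranked 18 among nuclear protein-coding genes. Rpl41 (chr10:128548114-128549305, minus strand; all coordinates are of mm10 as annotated by GENCODE) encodes a very small basic protein of the large subunit. Rps19, a protein of the head of the small subunit, was next, at 1330 TPM in replicate 2 and 1816 TPM in replicate 1. Rpl32 followed at 1157 TPM in replicate 2 and 1449 TPM in replicate 1, and Rps14 at 1162 TPM in replicate 2 and 1424 TPM in replicate 1. Rpl7, Rpl37a, Rps29, Rpl36 and Rplp0 were also among the upper 10, with means between 1050 ± 165 and 1133 ± 182 TPM. The deposited intervals of Rpl41 lay clear of those of Rps19 in both libraries, and those of Rps19 lay clear of all genes below it.

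Below that, the order was mostly not resolved. Of 77 neighbouring pairs in the order of mean level, 71 had intervals that overlapped in at least 1 library. The 10th and 90th percentiles of the 78 expressed genes were 191 and 929 TPM in replicate 2 and 239 and 1190 TPM in replicate 1, so that the upper was 4.87 times the lower in replicate 2 and 4.97 times in replicate 1. The order was much the same in both embryos: across the 78 genes, log2 TPM had a Pearson r of 0.991 and a Spearman rho of 0.983 between the libraries. This is a description across genes, which share libraries and sequence composition.

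The lower end held Rpl5, the partner of 5S ribosomal RNA, at 56.7 TPM in replicate 2 and 54.5 TPM in replicate 1. Rpl27a stood at 65.4 TPM in replicate 2 and 83.2 TPM in replicate 1, and Rpl12 at 79.1 TPM in replicate 2 and 105 TPM in replicate 1. Rpl27, Rpl22, Rps23, Rpl28, Rpl37, Rps12 and Rpl10a had means between 147 ± 24.2 and 231 ± 53.8 TPM. A low deposited level need not mean a low amount of message, as a gene and its copies elsewhere in the genome can share reads. Where such reads were made was not tested. Levels with copies added are given further on.

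**Figure D1:**
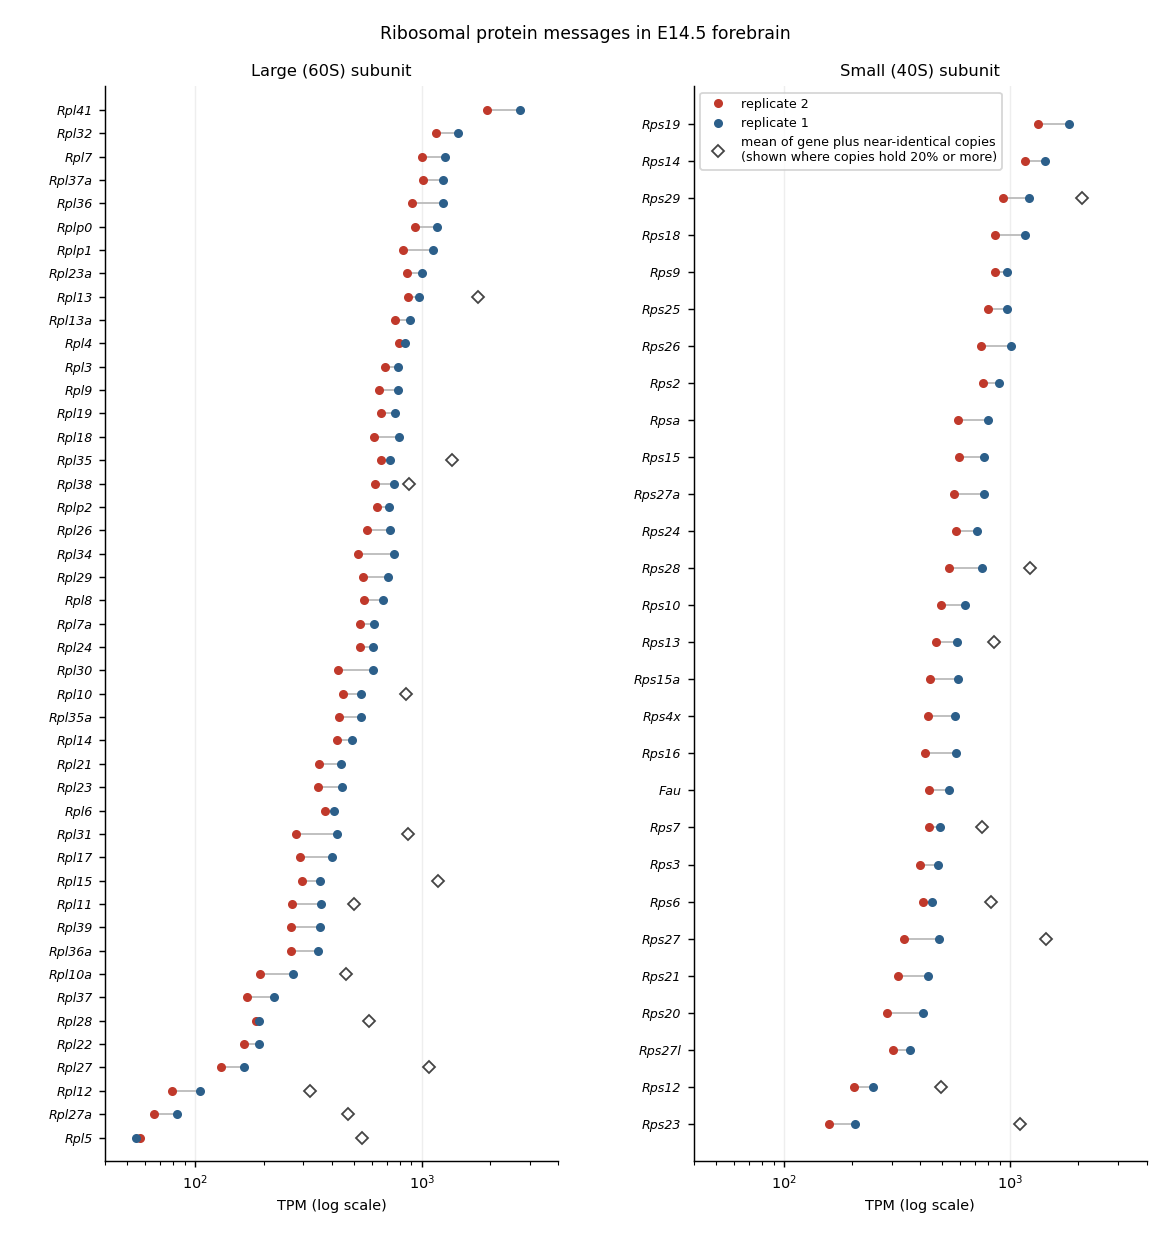
TPM (log scale) of 73 of the 78 expressed ribosomal protein genes, with large-subunit genes on the left and small-subunit genes on the right, in replicate 2 (red) and replicate 1 (blue). Open diamonds give the 2-library mean of the gene plus its near-identical copies where these hold at least 20% of the sum. Rpl41 was highest and Rpl5 lowest, and all genes shown but Rpl5 had the lower value in replicate 2.

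The subunits had about the same level. Expressed genes of the large subunit had a median of 533 TPM in replicate 2 and 644 TPM in replicate 1. Those of the small subunit had one of 534 TPM in replicate 2 and 691 TPM in replicate 1. Over all 49 and 32 genes, the large minus the small median on the log2 scale was -0.030 in replicate 2 and -0.18 in replicate 1. On mean levels it was -0.12, and it turned to 0.049 on expected counts, which are not divided by length.

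Among large-subunit proteins, those of the stalk, which recruits the elongation factors, were all abundant. Rplp0, the base of the stalk, had 934 TPM in replicate 2 and 1166 TPM in replicate 1. Its partner Rplp1 had 828 TPM in replicate 2 and 1126 TPM in replicate 1, and Rplp2 had 636 TPM in replicate 2 and 713 TPM in replicate 1. Rplp1 and Rplp2 form dimers on Rplp0, and their levels were 977 ± 211 and 675 ± 54.5 TPM (SD, n = 2).

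The 5S particle joins Rpl5 and Rpl11 to 5S RNA, and when it is free it binds the p53 regulator Mdm2. Rpl11 had 268 TPM in replicate 2 and 358 TPM in replicate 1, several times the deposited level of Rpl5. With near-identical copies added, they were close. Rpl5 came to 504 TPM in replicate 2 and 587 TPM in replicate 1, and Rpl11 to 467 TPM in replicate 2 and 539 TPM in replicate 1, the lower of the pair in both libraries.

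Of the proteins that line the exit tunnel, through which the new chain leaves, Rpl4 had 793 TPM in replicate 2 and 847 TPM in replicate 1. Rpl17 had 289 TPM in replicate 2 and 401 TPM in replicate 1. Rpl39, whose gene is on the X chromosome, had 265 TPM in replicate 2 and 354 TPM in replicate 1. Rpl4 was thus above both others in each library.

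Ubiquitin fusion genes encode ubiquitin, or a ubiquitin-like domain, joined to a ribosomal protein that is cut free after translation. Rps27a had 567 TPM in replicate 2 and 764 TPM in replicate 1. Fau, whose ribosomal part is the small-subunit protein eS30, had 436 TPM in replicate 2 and 534 TPM in replicate 1.

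In the small subunit, Rps6, the protein that S6 kinases phosphorylate, had 410 TPM in replicate 2 and 453 TPM in replicate 1. Rps3, at the entry of the message channel, had 399 TPM in replicate 2 and 479 TPM in replicate 1. Rps15, which lies near the decoding site, had 591 TPM in replicate 2 and 767 TPM in replicate 1. Rps23, which also lies at the decoding site, was the lowest small-subunit gene, with 159 TPM in replicate 2 and 207 TPM in replicate 1.

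The 81 genes lay on 20 chromosomes, with 14 on chromosome 7 and 7 each on chromosomes 9, 11 and 17. Rps4x, Rpl10, Rpl39 and Rpl36a are X-linked. Rps4x had 434 TPM in replicate 2 and 567 TPM in replicate 1, and Rpl10 had 449 TPM in replicate 2 and 540 TPM in replicate 1. Rpl36a had 265 TPM in replicate 2 and 349 TPM in replicate 1. The 4 X-linked genes had a median of 349 TPM in replicate 2 and 447 TPM in replicate 1, below the median of the 81.

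Genes whose mouse mutants are well known spanned much of the range. Rpl38, altered in the Tail-short mouse with its skeletal patterning defects, had 622 TPM in replicate 2 and 751 TPM in replicate 1. Rpl24, altered in the Belly spot and tail mouse, had 534 TPM in replicate 2 and 611 TPM in replicate 1. Rpl29, whose loss gives small mice, had 550 TPM in replicate 2 and 709 TPM in replicate 1. Rps20 and Rps19, both found in dark-skin mutants, lay far apart. Rps20 had 285 TPM in replicate 2 and 412 TPM in replicate 1, the lower of the pair in both libraries.

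The 18 listed genes that are mutated in human Diamond-Blackfan anaemia, a failure of red cell production, had a median of 516 TPM in replicate 2 and 670 TPM in replicate 1. The most abundant after Rps19 were Rps29, at 933 TPM in replicate 2 and 1213 TPM in replicate 1, and Rps26, at 742 TPM in replicate 2 and 1006 TPM in replicate 1. Rpl18, Rpl35, Rpl26, Rps24 and Rps28 had means between 641 ± 149 and 704 ± 129 TPM. Rps10, Rpl35a, Rps7, Rps27, Rpl31, Rpl15 and Rpl11 had means between 313 ± 63.7 and 562 ± 93.5 TPM. Rpl27 and Rpl5 were the lowest of the list.

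Ribosomal protein genes are often used as references for quantitative PCR. Of 7 such genes, Rpl32 was the most abundant and Rps16 the least, at 422 TPM in replicate 2 and 578 TPM in replicate 1. Rpl4 differed least between the embryos, with a log2 ratio of replicate 2 over replicate 1 of -0.10. Rps16 differed most, with -0.45. Rps18, Rplp0, Rpl13a and Rpl19 lay between them. All 7 were lower in replicate 2 with intervals apart, as were 74 of the 78 expressed ribosomal protein genes and 8.18% of all coding genes of at least 5 TPM.

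Several ribosomal protein genes have paralogues, and these were compared within each library. Rpl3l, the striated muscle form of Rpl3, and Rpl10l, a testis form of Rpl10, had 0 counts in both libraries. Set against the level that 3 counts per library would give, Rpl3 was at least 3662-fold higher than Rpl3l in replicate 2 and at least 5435-fold in replicate 1. Rpl10 was at least 2435-fold higher than Rpl10l in replicate 2 and at least 3803-fold in replicate 1. Rpl39l, a testis form of Rpl39, had 2 counts in replicate 2, where the TPM of Rpl39 was 1060 times as high, with an exact 95% Poisson interval of 293 to 8751 from those counts. It had 0 counts in replicate 1, where Rpl39 was at least 1563-fold higher. Floors and intervals of this kind cover counting error only.

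Other paralogues were well expressed. Rpl7 had 1005 TPM in replicate 2 and 1262 TPM in replicate 1, against 75.4 and 72.0 TPM for Rpl7l1 in the same libraries, a log2 ratio of 3.93 ± 0.28 (SD, n = 2). Rps4x stood above Rps4l, annotated as a transcribed processed pseudogene, by a log2 ratio of 2.13 ± 0.21. The X-linked Rpl36a and its autosomal copy Rpl36al were not separated by their intervals in both libraries (log2 ratio -0.06 ± 0.16). Rps27 and Rps27l, whose product is a p53 target in other cell types, were not separated by that rule either (0.29 ± 0.19). That ratio was -1.07 on expected counts and 2.09 with near-identical copies, and most windows of Rps27 are shared with a copy.

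Rpl22 and Rpl22l1 encode closely related large-subunit proteins. Rpl22l1 was the higher, at 198 TPM in replicate 2 and 238 TPM in replicate 1, against 164 TPM in replicate 2 and 191 TPM in replicate 1 for Rpl22. The log2 ratio of Rpl22 over Rpl22l1 was -0.30 ± 0.03, with intervals apart in both libraries. It turned to 0.27 when only transcripts annotated as protein-coding were summed, and to 0.61 on expected counts, which are not divided by length.

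Reads of these genes are hard to place. To measure this, all 100-base windows of each gene's protein-coding transcripts were searched for in the transcripts of other genes, on either strand. The median gene shared 24.7% of its windows, 23 genes shared more than 50%, and 12 genes, 9 of them expressed, shared none. A total of 48 genes had near-identical copies, counted as other genes with at least 50% of the windows of their longest transcript in the ribosomal protein gene. There were 93 such copies, 45 of them named only by Gm numbers, and 26 had a mean of at least 100 TPM. The copies summed to 11517 TPM in replicate 2 and 14908 TPM in replicate 1.

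Rps27 shows how close a copy can be. Its coding sequence of 252 bases is matched without a difference by that of Rps27rt, an intronless gene on another chromosome that is annotated as protein-coding, while the paralogue Rps27l differs at 60 of the 252 positions. The opening 90 coding bases are shown, with bases that differ from Rps27 in capitals (GENCODE transcripts, mm10).
Rps27 (chr3:90212522-90213651, minus strand): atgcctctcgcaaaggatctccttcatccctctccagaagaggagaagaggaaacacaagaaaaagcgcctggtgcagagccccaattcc
Rps27rt (chr9:114982366-114982739, minus strand): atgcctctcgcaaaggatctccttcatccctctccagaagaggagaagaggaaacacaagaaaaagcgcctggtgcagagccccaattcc
Rps27l (chr9:66946086-66949516, plus strand): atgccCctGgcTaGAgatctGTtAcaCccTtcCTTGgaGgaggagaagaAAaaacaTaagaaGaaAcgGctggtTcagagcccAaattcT

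Rps27 had only 1.63% of its windows to itself and the widest interval of all expressed members, 28.8% of its TPM. It had 339 TPM in replicate 2 and 486 TPM in replicate 1, against 845 TPM in replicate 2 and 1201 TPM in replicate 1 for Rps27rt. The sum was 1435 ± 356 TPM (SD, n = 2). By contrast, Rps27l shared no window with another gene, and its interval width was 7.44%. Rps12, Rpl12, Rpl5 and Rpl27 had the next widest intervals, at 20.4%, 18.8%, 15.9% and 14.8% of their TPM.

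Copies took more than the gene itself in 11 cases, among them 7 of the 10 least abundant genes. Gm15500, a transcribed processed pseudogene of Rpl5 (chr7:114705217-114706235), had 448 TPM in replicate 2 and 533 TPM in replicate 1, far above Rpl5. Rps23-ps1 (chr3:37714740-37715164) had 809 TPM in replicate 2 and 1036 TPM in replicate 1, which lifted Rps23 to 1105 ± 195 TPM with its copies. Rpl27 came to 1078 ± 153 TPM with Gm11518 and Rpl27-ps3, Rpl28 to 584 ± 52.1 TPM with Rpl28-ps1, and Rpl27a to 472 ± 84.2 TPM with Gm7536. Rpl12 reached 321 ± 49.6 TPM with Gm10275.

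Abundant genes had such copies as well. Rps29 had 933 TPM in replicate 2 and 1213 TPM in replicate 1, and its copy Gm14303 had 832 TPM in replicate 2 and 1154 TPM in replicate 1. Rpl15-ps3, at 765 TPM in replicate 2 and 955 TPM in replicate 1, stood above Rpl15, at 296 TPM in replicate 2 and 354 TPM in replicate 1.

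With copies added, the summed TPM of the members were more alike. The SD of log2 TPM over the 78 expressed genes was 0.96 for the genes alone and 0.72 with copies. The ratio of the 90th to the 10th percentile became 3.66 in replicate 2 and 3.40 in replicate 1. The lowest sums were then those of Rpl22, at 178 ± 19.2 TPM, and Rpl37, at 195 ± 37.6 TPM, neither of which has a near-identical copy. The highest were Rpl41 and then Rps29, at 2066 ± 426 TPM. These sums add TPM that were each divided by the row's own length, and a copy can be shorter than its parent. Gm14303 has 72 windows, against 291 for Rps29, so a read placed there adds more TPM than at Rps29. The sums and their order were not corrected for this. Whether reads given to a copy were made there or at the parent gene was not tested.

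**Figure D2:**
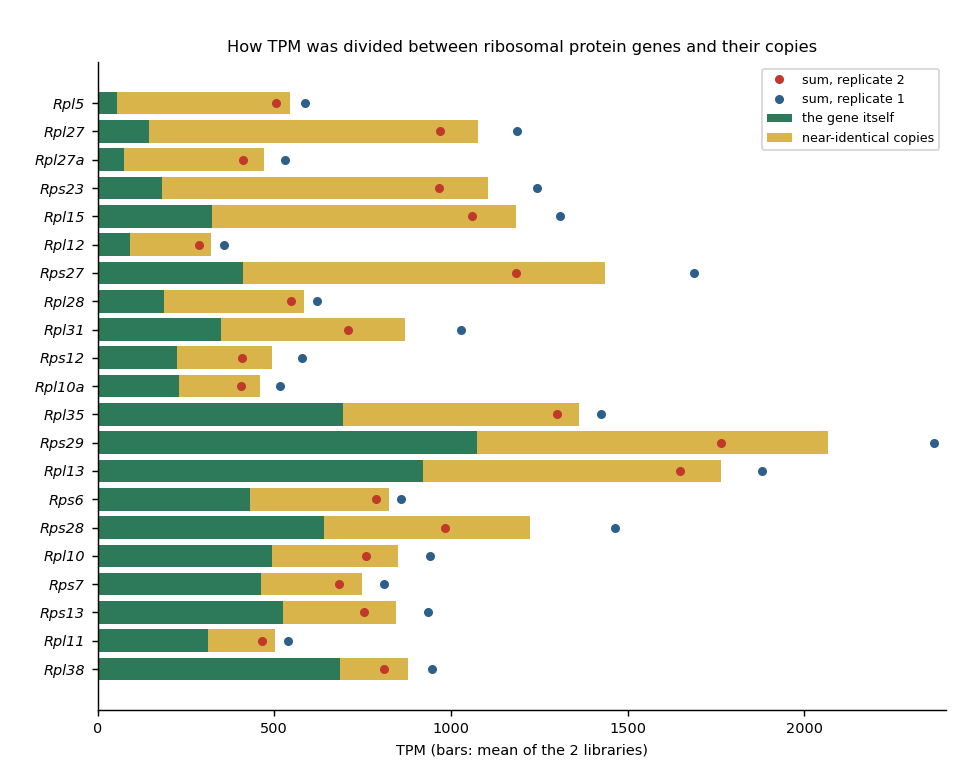
Mean TPM of the ribosomal protein gene itself (green) and of its near-identical copies (yellow) for 21 genes whose copies hold at least 20% of the sum, ordered by that share. Points give the sum in replicate 2 (red) and replicate 1 (blue). The copies' share is highest for Rpl5 and, among the genes shown, lowest for Rpl38.

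Pseudogenes named after a parent with -ps numbered 256, for 56 of the genes. Rps12 had 22 of them, Rpl31 had 21, Rps19 and Rpl23a had 14 each and Rpl21 had 12. Their summed TPM, which is not part of the sum of the ribosomal protein genes, equalled 10.6% of that sum in replicate 2 and 10.4% in replicate 1. Many pseudogenes did not bring a high summed level in every case: the 14 pseudogenes of Rps19 summed to 16.3 TPM in replicate 2 and 18.0 TPM in replicate 1, far below the parent. Only 63 of the 256 had a mean of at least 1 TPM.

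Most of the TPM lay on transcripts annotated as protein-coding. This share could be computed for 77 expressed genes and had a median of 99.4% in both libraries; in 62 genes it was over 90% in both. For Rpl13a no share is given, since most of its TPM lay on transcripts not matched to the annotation used for names. In 4 genes the share was under 50% in both libraries. Rps20 had 6.74% in replicate 2 and 6.26% in replicate 1, with the rest on transcripts annotated as having a retained intron, chiefly one of 582 bases. Rpl35 had 5.05% in replicate 2 and 5.96% in replicate 1, and Rpl23 had 31.7% in replicate 2 and 33.0% in replicate 1, with the rest on processed transcripts without an annotated reading frame. Rpl12 had 20.01% in replicate 2 and 15.7% in replicate 1, and its leading transcript is annotated as a target of nonsense-mediated decay, the pathway that removes messages with early stop codons. Rps18 was next, with 53.4% in replicate 2 and 50.9% in replicate 1. These classes are those of the annotation, and the coding state of the RNA was not measured.

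Many ribosomal protein genes also carry small nucleolar RNAs in their introns, which guide the modification of ribosomal RNA. Of the 81 genes, 29 (35.8%) contained 56 annotated snoRNA genes, against 1.19% of all nuclear protein-coding genes. Rpl4 had the most, with 5, and Rpl13a had 4. The hosts had a median of 517 TPM and the other expressed members one of 641 TPM, over the mean of both libraries. For the ribosomal protein genes, a snoRNA gene was counted when it lay within the host's span on the same strand.

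The TOP motif begins with a C at the transcription start, followed by an unbroken run of pyrimidines. Start windows of RefSeq (GRCm38.p6) were available for 61 of the 81 genes. A C at the annotated start followed by at least 4 bases of C or T, read on the gene's strand only, was present in 14 of them (23.0%, 95% Wilson interval 14.2 to 34.9%), against 2.66% of 16256 other nuclear protein-coding genes. With at least 6 pyrimidines after the C, the shares were 18.0% of ribosomal protein genes and 1.16% of the others. When the run could begin within 5 bases of the annotated start, they were 47.5% and 21.7%. The letters are a description of the annotated start, and a start placed a few bases off hides a tract. The intervals cover counting error only.

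Examples show both cases. Each window holds 10 bases before the annotated start and 20 from it onward, and capitals mark a tract that begins at that start. Fau and Rpl15 have the longest tracts, and Rpl35, Rps10, Rps18 and Rpl38 have clear ones, whereas the windows of the abundant genes Rplp0, Rpl41 and Rpl4 have none at that base.
Fau (chr19:6057937-6057966, plus strand): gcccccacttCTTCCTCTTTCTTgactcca
Rpl15 (chr14:18270967-18270996, minus strand): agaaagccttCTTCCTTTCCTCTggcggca
Rpl35 (chr2:39005112-39005141, minus strand): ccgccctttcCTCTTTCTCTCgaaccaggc
Rps10 (chr17:27635225-27635254, minus strand): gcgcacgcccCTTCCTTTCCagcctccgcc
Rps18 (chr17:33955646-33955675, minus strand): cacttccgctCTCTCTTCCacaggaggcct
Rpl38 (chr11:114668570-114668599, plus strand): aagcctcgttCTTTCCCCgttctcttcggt
Rplp0 (chr5:115559457-115559486, plus strand): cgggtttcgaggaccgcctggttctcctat
Rpl41 (chr10:128549149-128549178, minus strand): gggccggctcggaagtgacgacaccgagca
Rpl4 (chr9:64173377-64173406, plus strand): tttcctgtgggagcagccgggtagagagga

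Genes with a tract had a mean level between 188 TPM (Rpl28) and 1007 TPM (Rps18), with a median of 485 TPM, and the 44 expressed genes with a window but no tract had a median of 548 TPM. Their median log2 ratios between the embryos were -0.28 with a tract and -0.33 without.

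The ribosomal protein messages formed a smaller share of the RNA in replicate 2 than in replicate 1, and did so nearly as a block. Of the 78 expressed genes, 77 had the lower TPM in replicate 2, where 26.1% of all nuclear protein-coding genes of at least 5 TPM were lower. The 1 exception was Rpl5. The median log2 ratio of replicate 2 over replicate 1, on the log2(TPM + 1) scale, was -0.33 for the ribosomal protein genes, while it was 0.14 for all 10368 coding genes of at least 5 TPM. The difference of the medians was -0.47, and lay between -0.48 and -0.45 under the scalings and pseudocounts tried. The median for the large subunit was -0.32 and that for the small one -0.36.

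The deposited intervals of the embryos were apart, with the lower value in replicate 2, for 74 of the 78 genes, against 8.18% of all coding genes of at least 5 TPM. No ribosomal protein gene had intervals apart in the other direction, against 39% of coding genes. Rps6, Rps12, Rpl28 and Rpl5 were the 4 whose intervals overlapped. The differences were small: 1 gene, Rpl31, met the rule of a fold of at least 1.5 with intervals apart, lower in replicate 2, against 0.28% of coding genes, and 0 met it in the other direction, against 5.02%. With only 2 libraries in 1 group, these counts describe the 2 libraries and carry no p-value.

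Rpl31 (chr1:39367842-39371911, plus strand) had 279 TPM in replicate 2 and 422 TPM in replicate 1, a log2 ratio of -0.59. Rpl34 and Rps20 followed with -0.53, and Rps27 with -0.52. At the other end were Rpl5 with 0.06, Rpl28 with -0.05, Rpl4 with -0.10, and Rpl6 and Rpl35 with -0.13. With near-identical copies added, the median log2 ratio over the 81 genes was -0.32, against -0.33 without them. The part of read sharing in the difference was not tested. The 9 expressed genes with no shared window were all lower in replicate 2 with intervals apart, and had a median log2 ratio of -0.32, between -0.53 and -0.18. Windows were searched only for transcripts annotated as protein-coding. For Rps20 and Rpl23, which are among the 9, these held 6.74% and 31.7% of the TPM in replicate 2, so sharing by their other transcripts was not tested. With copies added, Rpl5 was also lower in replicate 2.

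Message length moved with the same difference. Coding genes with short messages were in general lower in replicate 2 and those with long messages higher, and the median effective length was 573 nucleotides for ribosomal protein genes, against 2412 for all coding genes of at least 5 TPM. The comparison was therefore repeated within bins of effective length. Up to 400 nucleotides, 16 ribosomal protein genes had a median log2 ratio of -0.44, and 76 other coding genes one of -0.27. From 400 to 600 nucleotides the medians were -0.33 for 26 ribosomal protein genes and -0.17 for 207 others. From 600 to 1000 nucleotides they were -0.32 for 26 and -0.09 for 757. From 1000 to 2000 nucleotides they were -0.26 for 10 and 0.07 for 2915.

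In each of these bins the ribosomal protein genes were thus the lower group, with differences of the medians between -0.33 and -0.16. The shares with intervals apart and lower in replicate 2 were 93.8%, 96.2%, 96.2% and 90% of ribosomal protein genes from the shortest bin to the longest. Among other coding genes in the same bins they were 53.9%, 51.7%, 27.7% and 8.44%. No ribosomal protein gene was longer than 2000 nucleotides, where 6335 other genes had a median of 0.21. Within-bin values were smaller than the unbinned gap. The red blood cell and meningeal markers were higher in replicate 2, the opposite direction, as were 73.8% of coding genes of at least 5 TPM. The part of these markers in the result was not tested.

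**Figure D3:**
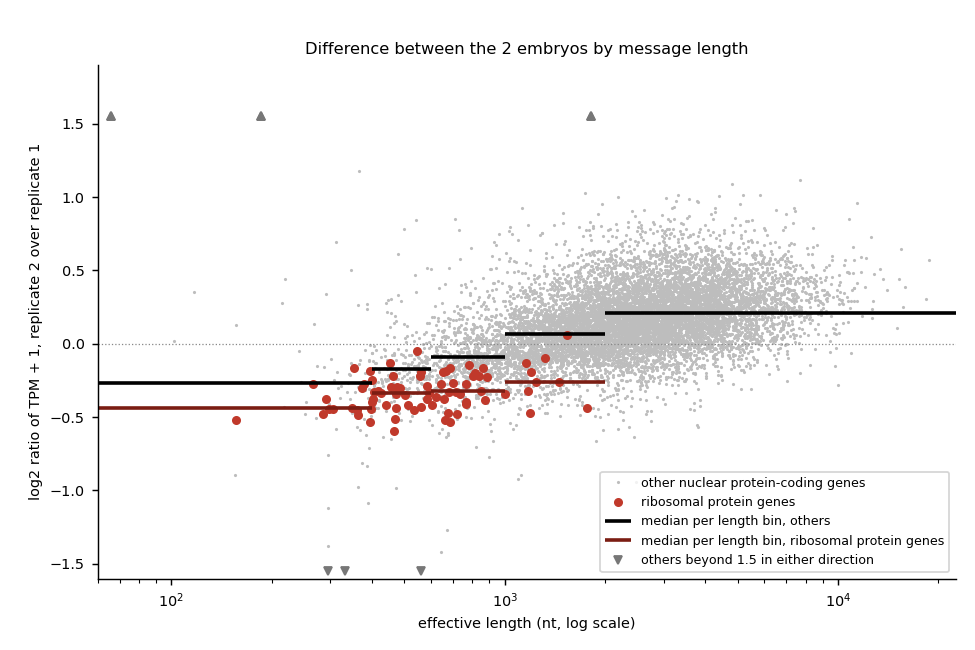
Log2 ratio of TPM + 1, replicate 2 over replicate 1, against effective length in nucleotides (log scale) for ribosomal protein genes (red) and other nuclear protein-coding genes of at least 5 TPM (grey), with the median of each length bin as a line. Triangles at the edges stand for 6 other genes beyond 1.5. The median of the ribosomal protein genes lies below that of other genes in all 4 length bins that hold any of them.

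Other genes of the translation system were set beside them. The 20 other TOP genes, among them elongation factors and RNA-binding proteins, had a median of 416 TPM in replicate 2 and 471 TPM in replicate 1 and a median log2 ratio of -0.15. Of these, 13 were lower in replicate 2 with intervals apart and 0 were higher, against 8.18% and 39% of all coding genes of at least 5 TPM. The most abundant was Eef1a1, which brings aminoacyl-tRNA to the ribosome, at 3985 TPM in replicate 2 and 4600 TPM in replicate 1. Tpt1 had 855 TPM in replicate 2 and 991 TPM in replicate 1, Rps3a1 had 684 TPM in replicate 2 and 770 TPM in replicate 1, and Rack1 had 473 TPM in replicate 2 and 600 TPM in replicate 1. Their messages are longer, with a median effective length of 1249 nucleotides.

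Proteins of the mitochondrial ribosome, made in the cytosol and imported, were far less abundant. The 77 genes had a median of 80.5 TPM in replicate 2 and 91.0 TPM in replicate 1. Their median log2 ratio was -0.07, with 26 lower in replicate 2 with intervals apart, against 8.18% of all coding genes of at least 5 TPM, and 3 higher, against 39%. At a median effective length of 885 nucleotides, this stood near the other coding genes of 600 to 1000 nucleotides, with their median of -0.09 and 27.7% lower. Mrps21 led them, at 241 TPM in replicate 2 and 280 TPM in replicate 1, followed by Mrpl20, Mrpl42, Mrpl30 and Mrpl28.

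The factors that build ribosomes stood near other coding genes. The 31 assembly factors found had a median of 48.5 TPM in replicate 2 and 43.5 TPM in replicate 1, a median log2 ratio of 0.08, and 4 lower against 9 higher with intervals apart, at a median effective length of 1525 nucleotides. Other coding genes of 1000 to 2000 nucleotides had a median of 0.07, with 8.44% lower and 23.5% higher. The nucleolar chaperone Npm1 was the most abundant, at 431 TPM in replicate 2 and 535 TPM in replicate 1, and was among the 4 lower; it is also one of the other TOP genes. The 14 genes of RNA polymerase I and its factors, which transcribe ribosomal RNA, had a median of 29.0 TPM in replicate 2 and 26.5 TPM in replicate 1. Their median log2 ratio was 0.14, equal to that of all coding genes of at least 5 TPM. With intervals apart, 2 were lower and 5 higher, against 8.18% and 39% of all coding genes of at least 5 TPM. Their median effective length was 1616 nucleotides, within the range of 1000 to 2000 nucleotides whose values are given above. Ubtf, the factor that opens ribosomal DNA, had 77.8 TPM in replicate 2 and 62.5 TPM in replicate 1.

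The 18 regulators of TOP messages and of ribosome synthesis had a median of 31.6 TPM in replicate 2 and 22.2 TPM in replicate 1. Of the 17 with at least 5 TPM, 1 was lower and 8 were higher in replicate 2 with intervals apart. Among all coding genes of at least 5 TPM these shares were 8.18% and 39%, and among other coding genes over 2000 nucleotides 2.68% and 52.1%. The median log2 ratio of the 17 was 0.16, where other coding genes over 2000 nucleotides had one of 0.21. Cnbp, an RNA-binding protein that contacts TOP messages, had 683 TPM in replicate 2 and 651 TPM in replicate 1. Mycn, a transcription factor of neural progenitors that raises ribosome synthesis, had 113 TPM in replicate 2 and 86.0 TPM in replicate 1. These regulators have long messages, with a median effective length of 2515 nucleotides, and their differences from the ribosomal protein genes were not compared at matched length.

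**Figure D4:**
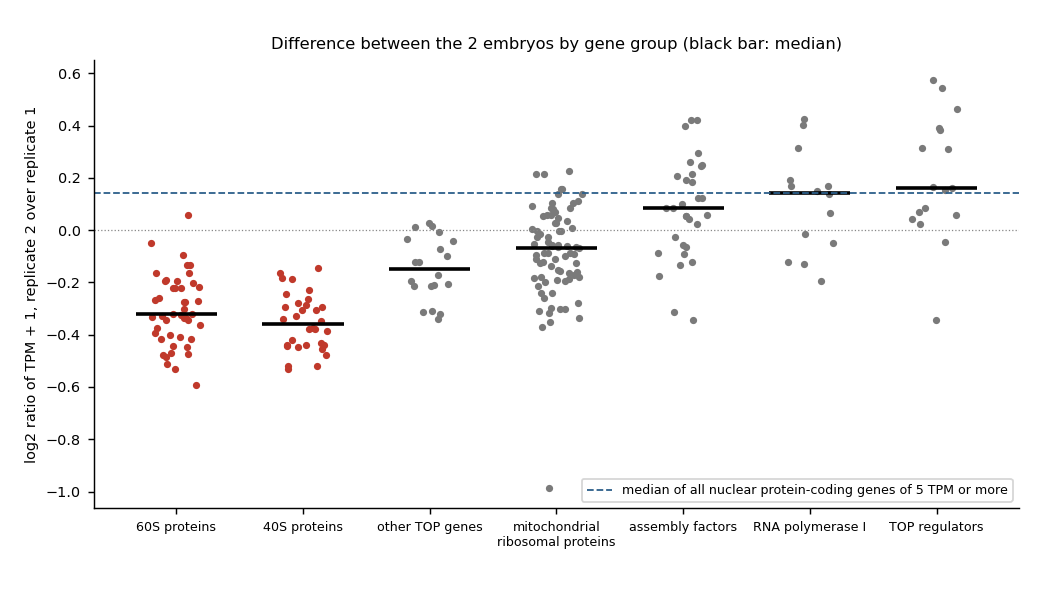
Log2 ratio of TPM + 1, replicate 2 over replicate 1, for each gene of at least 5 TPM in the ribosomal protein genes of each subunit and in 5 lists of related genes, with the list median as a black bar and the median of all nuclear protein-coding genes as a dashed line. Both subunits lie lowest, at medians of -0.32 and -0.36, followed by other TOP genes at -0.15.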

How the data were processed

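The authors quantified transcriptome alignments of each library on mm10 with GENCODE M4, per the README among the deposited files; the program is not given in the sources used here. They deposited, per gene and transcript, expected counts, TPM with the bounds of an interval, FPKM and, per transcript, its percent of the gene's TPM (per the file headers). Labels give Ambion mirVana extraction and link a Smart-seq protocol. Gene names and types came from GENCODE M21 by identifier without version, which named 42462 of 43346 mouse genes (98.0%).

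TPM were used as deposited. Levels are mean ± SD over 2 libraries. Depth was 29250404 expected counts in replicate 2 and 35310017 in replicate 1. A pair of genes or libraries were called apart when their deposited intervals did not overlap; a stricter rule added a 1.5-fold difference, both at a mean of at least 5 TPM. The deposited TPM lay outside its own interval for 37 of the 78 expressed genes in replicate 2 and 38 in replicate 1. In each case it lay above the interval. Among coding genes of at least 5 TPM, it lay outside for 9.22% in replicate 2 and 6.32% in replicate 1. Overlaps were therefore judged on the intervals and not on the TPM. Log2 ratios used a pseudocount of 1 TPM. As alternatives, rounded expected counts were scaled with edgeR 4.0.16 (TMM) and DESeq2 1.42.0, and FPKM, which the authors also deposited, were summed. The calls and the window search were tested on simulated data. The list of near-identical copies used transcripts present in both annotations, and was set after the data had been seen.

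Named genes were the 10 highest and 10 lowest, the role groups and paralogues, and the 5 most extreme by ratio, interval width, coding share and number of pseudogenes, plus up to 5 leading genes of other lists. Where a name falls outside this rule, such as a copy or the host of most snoRNAs, it was chosen after its values were seen. Members and lists were chosen with earlier results of these data known. Values of a few named genes are not reported here; they remain in the counts and medians.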

Additional observations from a re-analysis of the deposited data

How the results depend on the processing

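No paired analysis was possible because the series holds 1 group of 2 libraries. Of the alternatives computed, 70 left the value or call where it was. The summed level, 49244 TPM as the mean of both libraries, became 59881 TPM rescaled to nuclear protein-coding genes, 30918 FPKM, 18566 on the scale of expected counts per 1e6 counts and 62456 TPM with near-identical copies, and lay between 43565 and 54923 TPM with either library alone. The median level of 580 TPM became 649 TPM with -ps pseudogenes and 690 TPM with copies, with 533 to 628 TPM for single libraries. The SD of log2 TPM, 0.96, became 0.99 on expected counts and 0.72 with copies. Large minus small subunit, -0.12, became 0.049 on expected counts and -0.24 with copies, and lay between -0.18 and -0.030 with either library alone. The median log2 ratio between the embryos, -0.33, became -0.49 with TMM and -0.51 with DESeq2 size factors, where the median of all coding genes moved to -0.02 and -0.04. Genes that differed, 1 at a 1.5-fold minimum, numbered 0 at a fold of 2, 42 at the lower minimum tried and 74 with no minimum. The 42 were lower in replicate 2, and 2.22% of all coding genes of at least 5 TPM were lower by the same rule.

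The Rpl22 over Rpl22l1 log2 ratio of -0.30 reversed to 0.61 on expected counts and 0.27 on protein-coding transcripts. Rps27 over Rps27l, 0.29, became -1.07 on expected counts and 2.09 with copies. Rpl7 over Rpl7l1, 3.93, became 2.05 on expected counts. Rpl36a over Rpl36al, -0.06, lay between -0.17 and 0.059 in single libraries. The start tract share of 23.0% became 47.5% when it could begin within 5 bases. Expected counts are not divided by length; the causes of the other changes were not tested. Each of the 78 expressed genes had at least 931 expected counts in either library, and the effect of depth was not tested. Placement of reads among copies can bear on the expressed genes that share windows, while 9 of the 78 share none. The 2 libraries cannot tell a difference between embryos from one between preparations.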
